A study of Mus musculus with 6 samples.

Results

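The genes described here are 10 intermediate filament genes of the mouse: Vim, Nes, Gfap, Des, Synm, Lmna, Lmnb1, Ina, Nefl and Nefm. They were chosen by symbol for the family they belong to, with earlier results of these data known, and are 10 of the 54446 genes listed in the deposited matrices. The libraries come from GL261, a mouse glioma cell line, and from GL261-GSCs, glioblastoma stem cells derived from that line. The 2 GL261 libraries were made from cells kept in differentiation medium with fetal calf serum (FCS), and the 4 GL261-GSCs libraries from cells grown in defined GSC medium. Both groups share the parent line, so each comparison describes 1 line in 2 media and cannot tell the medium from the derivation of the stem cell culture. The labels speak of cells and neurospheres taken apart with Accutase and exposed to a detergent lysis buffer, and of either cells or nuclei captured in droplets for 5′ single-cell RNA sequencing on the Chromium instrument, without saying which were loaded. They give neither the number of separate cultures nor their dates, so the p-values here measure only the spread between these libraries, which may be technical.

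Intermediate filament proteins share a central coiled-coil rod and polymerise into rope-like fibres. Most form networks in the cytoplasm, where they bear mechanical load, while the lamins line the inside of the nuclear envelope. The set of filament genes a cell uses depends on its lineage and maturity: nestin and vimentin are typical of neural progenitors, glial fibrillary acidic protein (GFAP) of astrocytes, desmin of muscle, and α-internexin and the neurofilament proteins of neurons. In glioma, nestin is often used as a marker of stem-like cells and vimentin as a marker of a mesenchymal state.

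The 6 libraries held 4264 to 7275 called cells and 33320530 to 79472306 unique molecular identifiers (UMIs, each counting 1 captured transcript end) in those cells. The median cell had 15478 and 13652 UMIs in GL261 replicates 1 and 2, and 15375, 11890, 10638 and 6670 in GL261-GSCs replicates 1 to 4. GL261-GSCs replicate 4 stood apart, with the fewest UMIs per cell and 41.2% of its UMIs in called cells, against 56.7% to 65.7% in the others. Pairs of libraries shared 32 to 59 barcodes among their called cells. Of the markers of other cell types, Rbfox3 (neurons), Aqp4 (astrocytes) and Myod1 (muscle) had 0 UMIs in every library, and the blood cell marker Ptprc had 2 UMIs in the GL261 and 4 in the GL261-GSCs libraries. Other markers differed in count between the groups, given here as raw UMIs over 2 GL261 and 4 GL261-GSCs libraries. The neuron marker Syt1 had 3 UMIs in GL261 against 7942 in GL261-GSCs, and passed the filter on low counts only through GL261-GSCs. The astrocyte markers Slc1a3 and Aldh1l1 had 11 against 18753 and 872 against 2. Of the myeloid markers Csf1r had 1632 against 59 and Cd68 956 against 3903. Cd68 averaged 7.45 against 16.1 CPM (UMIs scaled to a common library total) and was not called (edgeR adjusted p = 0.0662). The endothelial marker Cdh5 had 49 against 1 and was called lower. It passed the filter on low counts only through GL261 and so had to differ. Of the other endothelial markers, Pecam1 had 114 against 160, on average 0.867 against 0.588 CPM, and was not called. Kdr had 1 against 2, Tek 1 against 4 and Cldn5 none. Of the 5 oligodendrocyte markers edgeR called 3 higher in GL261-GSCs and 1, Mbp, lower, beside 15.8% higher and 14.1% lower of all genes tested. The part of the markers of other cell types in the results was not tested. Of the 6 glioma stem cell markers 3 were called higher in GL261-GSCs and Cd44 lower, beside the same shares of all genes. Prom1, with 3 and 8 UMIs, and Fut4, with none, did not pass the filter on low counts. Among the 3 called higher, Olig2 passed it only through GL261-GSCs. Olig2, a transcription factor of glioma stem cells and of the oligodendrocyte lineage, lay between 401 and 787 CPM in the GL261-GSCs libraries and at 0.918 and 0.0166 CPM in the GL261 libraries.

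The promoter sequences of the 3 most abundant members that were lower in GL261-GSCs and had an entry, and of Des, which was higher, are shown because these genes differed in opposite directions between the groups. RefSeq's GRCm38.p6 promoter table held 7 of the 10 members. Lmnb1, Nefl and Nefm had no entry. Each line gives the 250 bases before the transcript start, 5′ to 3′ on the gene's strand, with matches to the CCAAT box (CCAAT, either strand), the TATA box (TATAAA, gene strand) and the GC box (GGGCGG, either strand) in capitals.

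Vim, chr2:13574061-13574310, plus strand: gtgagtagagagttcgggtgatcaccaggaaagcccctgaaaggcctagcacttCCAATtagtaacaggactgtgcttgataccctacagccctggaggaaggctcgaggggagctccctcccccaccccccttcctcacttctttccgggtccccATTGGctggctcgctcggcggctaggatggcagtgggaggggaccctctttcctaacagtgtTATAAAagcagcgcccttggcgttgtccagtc

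Nes, chr3:87970843-87971092, plus strand: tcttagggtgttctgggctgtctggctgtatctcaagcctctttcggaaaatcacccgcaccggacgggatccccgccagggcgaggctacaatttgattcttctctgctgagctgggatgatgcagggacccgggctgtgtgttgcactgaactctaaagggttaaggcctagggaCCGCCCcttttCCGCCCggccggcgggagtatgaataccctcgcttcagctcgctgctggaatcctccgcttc

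Lmna, chr3:88503353-88503602, minus strand, first of the 2 starts listed: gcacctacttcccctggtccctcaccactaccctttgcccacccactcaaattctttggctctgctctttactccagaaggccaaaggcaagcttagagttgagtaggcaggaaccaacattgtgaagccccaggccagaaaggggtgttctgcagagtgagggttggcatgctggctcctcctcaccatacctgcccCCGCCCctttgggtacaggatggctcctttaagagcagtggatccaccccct

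Des, chr1:75360042-75360291, plus strand: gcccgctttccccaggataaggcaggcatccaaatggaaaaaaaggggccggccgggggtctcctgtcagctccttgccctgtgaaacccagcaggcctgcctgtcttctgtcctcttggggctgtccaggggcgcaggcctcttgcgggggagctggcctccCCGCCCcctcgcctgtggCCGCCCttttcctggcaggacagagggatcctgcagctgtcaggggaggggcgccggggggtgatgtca

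Vim had 2 CCAAT boxes and a TATA box 32 to 27 bases before its start, and Nes and Des each had GC boxes. The Lmna window shown had a GC box 52 to 47 bases before its start, and that of the second start a CCAAT box. The Lmna window shown lies inside the span of the gene in GENCODE (88480147 to 88509956). So does the Vim window (span 13573927 to 13582826), and the Nes window runs past the GENCODE start of Nes at 87971078. Among all 32851 promoter windows of this length, 33.8% held the CCAAT box, 7.59% the TATA box and 32.7% the GC box. Binding motifs of AP-1 (TGANTCA, either strand, in 6.75% of all windows) and of serum response factor (the CArG box, either strand, in 1.47%) were not found in any of the 8 windows of the 7 members. These are matches of letters in a short window, with no measurement of binding.

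Of the filament genes abundant enough to test, all but 1 were lower in GL261-GSCs than in GL261. Vim, Nes, Lmna, Lmnb1, Synm and Gfap fell, and Des rose. The size of the change ran from 1.67-fold for Lmnb1 to 25.4-fold for Lmna among the abundant members, as ratios of the groups' mean CPM. Together the 10 genes took 1.59% ± 0.0499 (SD, n = 2) of the UMIs of GL261 cells and 0.546% ± 0.0376 (SD, n = 4) of those of GL261-GSCs cells. For each library the UMIs of all its called cells were added up, and the sums were tested with edgeR's quasi-likelihood test, with Benjamini-Hochberg adjustment over the 18439 genes that passed its filter on low counts. Of the 10 members, 7 passed that filter and all 7 were called at an adjusted p under 0.05, 6 lower and 1 higher, against 29.9% of all genes tested, 14.1% lower and 15.8% higher. Gfap passed the filter only through its GL261 libraries and so had to differ, and the count of 7 is given as a description. For each of the 7, no GL261-GSCs library overlapped the GL261 libraries, as was so for 56.7% of all genes tested. The median log2 fold change of the 7 was -1.66, against 0.04 over all genes tested. In summed libraries, fewer cells that use a gene and less RNA per cell cannot be told apart, and the values per cell are given after the levels.

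**Figure D1:**
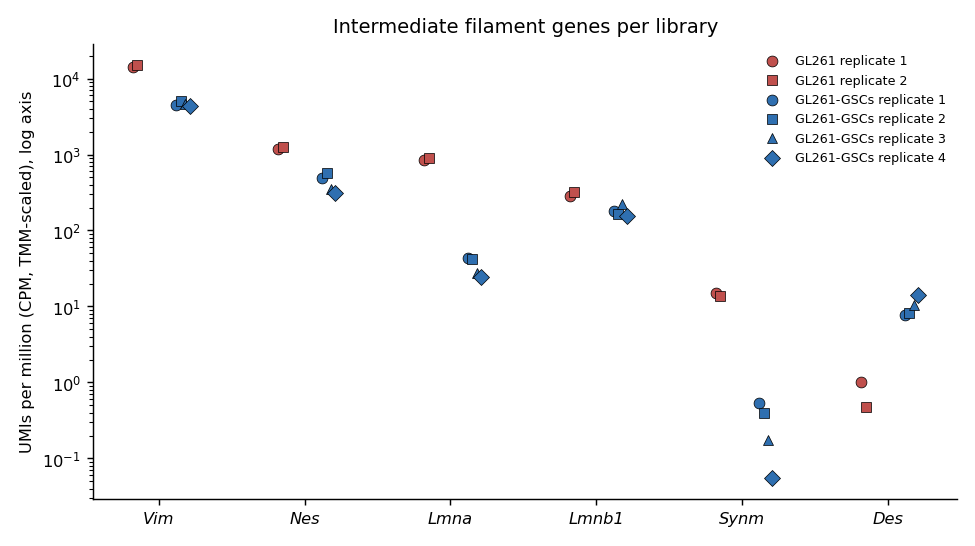
Level of 6 filament genes in each library, as CPM scaled by the trimmed mean of M values (TMM), on a log axis; red points are the 2 GL261 libraries and blue points the 4 GL261-GSCs libraries. The groups do not overlap for any of the 6 genes, and Des is the only one of them with the blue points above the red.

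Vim encodes vimentin, the filament protein of mesenchymal and progenitor cells, and lies on chromosome 2 (GRCm38, 13573927 to 13582826, plus strand). It was the most abundant member in every library. Its level was 14053 and 15215 CPM in the GL261 libraries, and 4496, 5052, 4625 and 4355 CPM in GL261-GSCs. Every GL261-GSCs library was below both GL261 libraries, and the 4 lay close together. The log2 fold change was -1.66 ± 0.14 (SE), with an adjusted p of 0.000386 by edgeR, and 8.99% of all genes were called with a fall of at least 1 on the log2 scale.

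Nes encodes nestin, which forms filaments only together with a partner such as vimentin. It lies on chromosome 3 (87971078 to 87980451, plus strand). Its level was 1183 and 1265 CPM in GL261, against 488, 563, 346 and 312 CPM in GL261-GSCs. The stem cell libraries were again all lower, and replicates 1 and 2 stood above replicates 3 and 4. Its log2 fold change was -1.52 ± 0.25 (SE), adjusted p = 0.00523 by edgeR. Without GL261 replicate 2 the fold change was -1.47 and the edgeR adjusted p 0.0520, so that the call was lost. The level of this marker of stem-like cells was thus lower in the group labelled as stem cells.

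Lmna encodes lamins A and C, the lamins that stiffen the nuclear envelope and are scarce in many undifferentiated cells. The gene lies on chromosome 3 (88480147 to 88509956, minus strand), within 1 megabase of Nes. Its level was 834 and 902 CPM in the GL261 libraries, and 42.8, 41.6, 27.9 and 24.7 CPM in GL261-GSCs. The lowest GL261 library was far above the highest GL261-GSCs library. The log2 fold change was -4.66 ± 0.26 (SE), adjusted p = 0.000100 by edgeR, and 2.01% of all genes were called with a fall of at least 4. Lmna was called, and lower, under all 16 alternatives run, with log2 fold changes from -4.77 to -4.36.

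Lmnb1 encodes lamin B1, a farnesylated lamin that stays attached to the inner nuclear membrane and is made by nearly all cell types. It lies on chromosome 18 (56707813 to 56753424, plus strand). Its level was 282 and 318 CPM in GL261, against 180, 162, 224 and 153 CPM in GL261-GSCs. The groups did not overlap, and GL261-GSCs replicate 3 came nearest to the GL261 libraries. The log2 fold change was -0.74 ± 0.18 (SE), adjusted p = 0.0212 by edgeR. This call was lost without GL261 replicate 1 (adjusted p = 0.0950), without GL261 replicate 2 (0.175) and without GL261-GSCs replicate 2 (0.0530), with the same direction each time. The log2 fold change of Lmna, at -4.66, was far larger than that of Lmnb1. Among the UMIs of the 10 genes, Lmna held 5.09% ± 0.00482 (SD, n = 2) in GL261 but 0.644% ± 0.149 (SD, n = 4) in the stem cell libraries. Lmnb1 held 1.76% ± 0.0506 and 3.42% ± 0.634. Most of that total is Vim, which also fell, so the share of Lmnb1 rose although its level was lower. In an exact permutation test over the 15 arrangements of the group labels both differences in share reached p = 0.133, the smallest p that 2 libraries against 4 can give.

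Synm encodes synemin, a large filament protein that joins vimentin or desmin networks to adhesion sites. It lies on chromosome 7 (67730160 to 67759742, minus strand), where the gene Ttc23 runs across it on the opposite strand. Its level was low in both groups: 14.9 and 13.7 CPM in the GL261 libraries, and 0.531, 0.400, 0.175 and 0.0549 CPM in GL261-GSCs. The GL261 libraries held 1008 and 826 UMIs and the GL261-GSCs libraries 35, 29, 14 and 2. The 4 stem cell libraries spread widely but all lay far below GL261. The fit gave a log2 fold change of -5.57 ± 0.63 (SE) and an edgeR adjusted p of 0.00121.

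Gfap encodes the filament protein of mature astrocytes and lies on chromosome 11 (102887336 to 102900912, minus strand), wholly overlapped by the non-coding gene Gm26668 on the other strand. It was barely detected in either group. The GL261 libraries held 83 and 82 UMIs and the GL261-GSCs libraries 1, 0, 0 and 2. From summed UMIs over TMM-scaled library totals it was 110-fold lower in GL261-GSCs (95% counting interval 36.8 to 537). The edgeR adjusted p of 0.00155 is given for completeness, since the gene passed the filter only through GL261. The size rests on 3 UMIs, and the fitted log2 fold change of -6.50 became -7.64 without GL261-GSCs replicate 4 and -5.50 with all barcodes. In GL261 the UMIs were spread thinly, with no more than 2 in any cell. Other astrocyte markers did not all follow the same direction. The summed level of the 6 fixed astrocyte markers was 89.5 and 95.9 CPM in GL261, against 186 to 278 CPM in GL261-GSCs. Of them 2 were called higher and 1 lower by edgeR, beside 15.8% higher and 14.1% lower of all genes tested, and Aqp4 was at 0. Slc1a3, called higher, passed the filter only through GL261-GSCs, and Aldh1l1, called lower, only through GL261, so both had to differ. The part of the astrocyte markers in the result was not tested.

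Des encodes desmin, the filament of muscle cells, on chromosome 1 (75360329 to 75368579, plus strand). It was the only member called higher in GL261-GSCs. Its level was 1.01 and 0.480 CPM in the GL261 libraries, and 7.67, 8.13, 10.4 and 14.2 CPM in GL261-GSCs, from 97 and 2441 UMIs in all. The groups were well apart, and replicates 3 and 4 were the highest. With edgeR the log2 fold change was 3.75 ± 0.46 (SE), adjusted p = 0.00165 by edgeR, and 5.17% of all genes were called with a rise of at least 3 on the log2 scale. It was 4.38 without GL261 replicate 1 and 3.32 without GL261 replicate 2, called both times. The muscle markers were near 0: all 6 were under 1 CPM in every library, with a summed level of 0.489 and 0.530 CPM in GL261, against 0.248 to 1.14 CPM in GL261-GSCs. An antisense gene, Gm15179, overlaps 368 bases of Des, and how the counting treated strand is unknown.

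Ina, Nefl and Nefm encode α-internexin and the light and medium neurofilament subunits, the filaments of neuronal axons. All 3 were too rare to pass the filter on low counts. Ina had 10 and 4 UMIs in the GL261 libraries, none in those of GL261-GSCs, too few to give a size for the difference. With no filter on low counts edgeR called Ina lower (adjusted p = 0.0136 over 32817 genes). This made 8 members called, beside 5584 of the 32817 genes. With UMIs in GL261 alone Ina could differ in that direction only, so its call is a description. The same edgeR fit gave adjusted p = 0.530 for Nefl and 0.614 for Nefm. Nefl had 1 and 1 UMIs in GL261 and 3, 3, 4 and 0 in GL261-GSCs, a ratio of 2.51 (95% counting interval 0.535 to 23.6). Nefm had 1 and 0 UMIs against 3, 3, 0 and 0, a ratio of 3.01 (0.365 to 139). Both intervals include 1, and at these counts a difference could not be detected. Nefl and Nefm also overlap each other on opposite strands, so their UMIs may not be separable.

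Replicates 1 and 2 of GL261-GSCs differed from replicates 3 and 4 for several members. Nes averaged 526 CPM in the first pair and 329 CPM in the second, Lmna 42.2 and 26.3 CPM, and Synm 0.465 and 0.115 CPM. Des went the other way, at 7.90 and 12.3 CPM, while Vim differed little, at 4774 and 4490 CPM. The pairs were formed after seeing the libraries, and no test was made of them. The median UMIs per cell were also higher in replicates 1 and 2, and their part in these differences was not tested.

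By chromosome, the fold changes of Vim, Lmna, Synm and Des lay outside the 10th to 90th percentile range of the genes within 5 megabases of each, whereas Nes and Lmnb1 lay inside it. Around Vim, 58 tested neighbours had a median log2 fold change of 0.29. Around Nes and Lmna, 148 neighbours had a median of -0.21, and 33 of them were called lower and 14 higher. Around Lmnb1, 50 neighbours had a median of -0.84, slightly below the value of Lmnb1 itself, and 31 were called lower and 6 higher, against 14.1% and 15.8% of all genes. The median over the 452 tested genes of chromosome 18 was -0.47. What moved the neighbourhood of Lmnb1 was not tested.

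**Figure D2:**
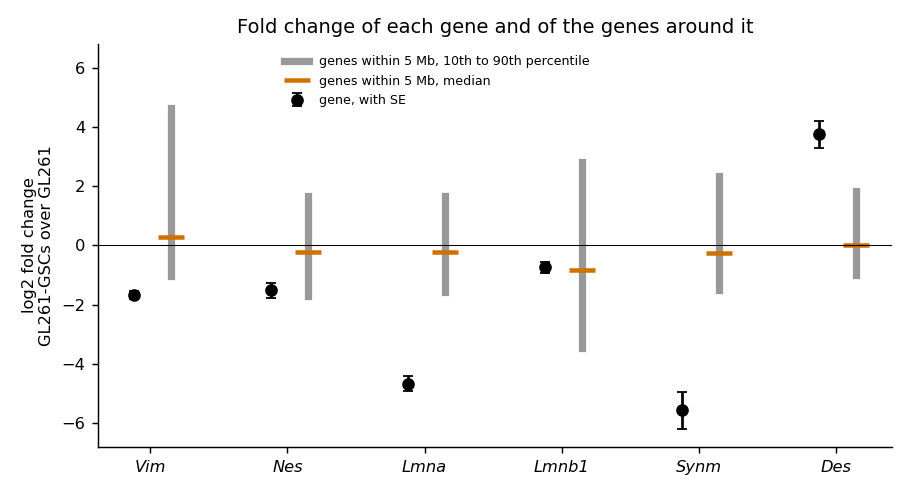
Log2 fold change of GL261-GSCs over GL261 for 6 members (black points, bars are the SE) beside the genes tested within 5 megabases (orange line, median; grey bar, 10th to 90th percentile). Lmna at -4.66, Synm at -5.57, Vim at -1.66 and Des at 3.75 lie outside the grey bars, and Lmnb1 at -0.74 lies next to its neighbours' median of -0.84.

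The levels per cell showed how widely each member was detected. Each cell was thinned to 2000 UMIs, since depth per cell differed between libraries. Vim was found in nearly all cells, 99.98% ± 0.0294 (SD, n = 2) of GL261 cells and 99.2% ± 0.376 (SD, n = 4) of GL261-GSCs cells. Its amount per cell differed instead. The median cell held 25 and 26 Vim UMIs in GL261, and 8, 9, 8 and 7 in GL261-GSCs. The middle 50% of cells ran from 18 to 32 and from 19 to 34 UMIs in GL261, and from 6 to 12, 6 to 13, 5 to 12 and 4 to 12 in GL261-GSCs, so the middle ranges of the groups did not overlap. The medians differed by -17.5 UMIs, GL261-GSCs minus GL261 (exact permutation p = 0.133, the smallest possible). Barcodes with 100 to 1000 UMIs, which hold mostly RNA free in the droplets, gave an expected 0.401 to 0.995 Vim UMIs per cell at this depth, far below the medians. Cells with fewer than 5 Vim UMIs made up 0.998% and 0.4998% of GL261 and 16.1%, 13.5%, 19.7% and 26.5% of GL261-GSCs.

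**Figure D3:**
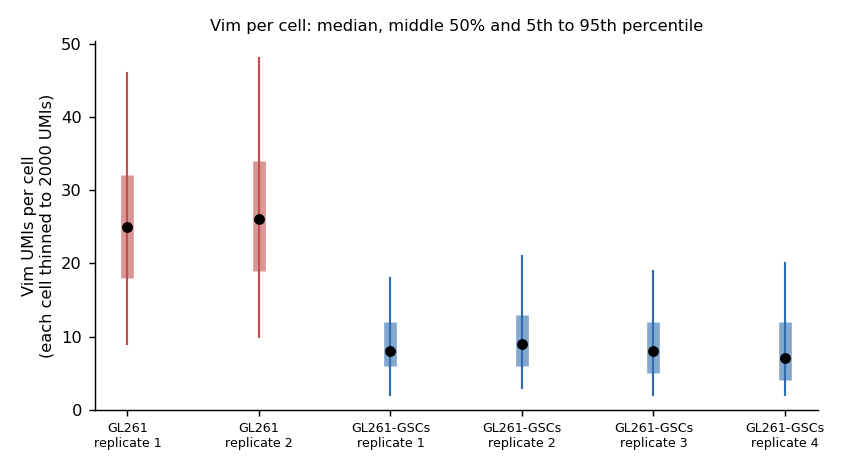
Vim UMIs per cell after thinning each cell to 2000 UMIs, for the 2 GL261 (red) and 4 GL261-GSCs (blue) libraries; black points are medians over cells, thick bars the middle 50% of cells and thin lines the 5th to 95th percentile. The medians are 25 and 26 in the red libraries and 7 to 9 in the blue, and the thick bars of the groups do not meet.

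Among the members, the share of cells with a UMI differed most for Lmna. Less RNA per cell also lowers such a share, so it cannot tell fewer cells that use a gene from less RNA per cell. The same limit holds for the shares of the other members. At 2000 UMIs per cell it was 72.7% and 76.9% in the GL261 libraries, against 8.07%, 8.09%, 5.62% and 5.54% in GL261-GSCs, with 5.50% and 6.18% expected from free RNA in GL261 and 0.324% to 0.544% in GL261-GSCs. All GL261-GSCs shares were far below both GL261 shares, and all were above their own free RNA level. Without thinning the group means were 97.6% and 29.5%.

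Nes was found in 76.6% and 82.3% of GL261 cells, and in 59.1%, 63.3%, 47.3% and 45.5% of GL261-GSCs cells. Free RNA accounted for an expected 1.85% to 3.54%. All 4 stem cell libraries were below both GL261 libraries, and each was far above its free RNA level. Without thinning the means were 96.1% in GL261 and 89.7% in GL261-GSCs, and the libraries of the groups overlapped (exact permutation p = 0.533). Lmnb1 was found in 38.8% ± 2.55 (SD, n = 2) of GL261 cells and 27.9% ± 3.40 (SD, n = 4) of GL261-GSCs cells, with 1.25% to 2.92% expected from free RNA. Without thinning these were 84.4% and 69.0%.

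Des was rare in single cells even where it was higher. It was found in 0.208% and 0.0600% of GL261 cells and in 1.81%, 1.62%, 2.02% and 2.75% of GL261-GSCs cells at 2000 UMIs, with at most 0.385% expected from free RNA. Without thinning the means were 0.955% and 9.93%. No GL261-GSCs cell held more than 5 Des UMIs, so the UMIs were spread over many cells and did not come from a few cells rich in Des. Synm was found in 2.995% and 2.60% of GL261 cells, in 0.141% and 0.102% of the cells of GL261-GSCs replicates 1 and 2, and in 0 of 7275 and 0 of 4512 thinned cells of replicates 3 and 4, which allows shares of up to 0.0412% and 0.0665% of cells with a UMI at 2000 UMIs. Free RNA gave an expected 0.0457% at most. At full depth 13 and 2 cells of replicates 3 and 4 held a Synm UMI, and the mean shares were 14.7% in GL261 and 0.357% in GL261-GSCs. At 2000 UMIs the shares did not overlap between groups for 9 of the 10 members, against 48.8% of all genes tested. Without thinning they did not overlap for 6, Gfap and Ina among them, and the share over all genes was not computed there. The 9 include Ina and Nefl, which were not among the genes tested and were found in at most 3 cells of any library. For each of the 9 the exact permutation p was 0.133, the smallest possible. These intervals and limits cover counting error only.

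Within the filament set, the UMIs of the 10 genes were 85.9% ± 0.0257 (SD, n = 2) Vim in GL261, whereas GL261-GSCs reached 87.7% ± 1.57 (SD, n = 4), a difference of 1.85 percentage points (exact permutation p = 0.133), or 1.22 without GL261-GSCs replicate 4. Nes made up 7.18% ± 0.0589 (SD, n = 2) in GL261 against 8.01% ± 1.73 (SD, n = 4) in GL261-GSCs, and its share overlapped between groups (exact permutation p = 0.800). From cell to cell within a library, 5 pairs among Vim, Nes, Lmna and Lmnb1 were compared, and all had low correlations. Across the cells of each GL261 library the Pearson r of log values was 0.157 and 0.136 for Vim with Lmna, and across those of the GL261-GSCs libraries 0.000500 to 0.0368. These are descriptions of sparse counts at 1 fixed depth, where few GL261-GSCs cells have a Lmna UMI, and a low r does not show that genes are unrelated.

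Lamin B1 RNA is known to vary over the cell cycle, so the 4 abundant members were compared between cells with high and low cell cycle scores. In each library the top 20% of cells by the share of UMIs in 50 G2/M genes were called G2/M-high, and those of the top 20% by the share in 42 G1/S genes that were not G2/M-high were called S-high. These classes are ranges of a score, not cell types, and 246 to 689 cells per library lay within 10% of the G2/M limit. Free RNA also enters the scores, and its part in them was not tested.

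Lmnb1 was higher in G2/M-high cells in 6 of 6 libraries. The log2 ratio over the other cells was 1.11 and 0.79 in the GL261 libraries, against 1.01, 0.76, 1.32 and 2.11 in GL261-GSCs, with a mean of 1.18 (SD 0.50). GL261-GSCs replicate 4, the shallowest library, gave the highest ratio, and the mean without it was 0.998. In S-high cells Lmnb1 was higher in 6 of 6 libraries by a mean of 0.70 (SD 0.36), as were 21.8% of all genes. Each had an exact sign-flip permutation p of 0.03125, the smallest that 6 libraries can give, and 0.0857 after Benjamini-Hochberg adjustment over all 10958 genes and both comparisons, so neither passed the adjusted threshold. A mean log2 ratio of at least 1 with all 6 libraries higher was found in 1.51% of genes for G2/M-high cells and in 0.858% for S-high cells; all 6 libraries were higher for 19.1% of genes in G2/M-high cells.

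The other abundant members moved little. Vim in G2/M-high cells was lower in 6 of 6 libraries by a mean log2 ratio of -0.11 (SD 0.03), and Lmna in S-high cells was lower in 6 of 6 by -0.19 (SD 0.14), each with an adjusted permutation p of 0.0857. Nes had mean ratios of 0.01 in G2/M-high and 0.13 in S-high cells, with libraries on both sides of 0. All 6 libraries were lower for 20.7% of all genes in G2/M-high cells and for 11.3% in S-high cells. Of the 8 comparisons, 4 had all libraries on 1 side, against 39.8% of all genes for G2/M-high and 33.1% for S-high cells. With cells thinned to 2000 UMIs the 4 became 7. Lmnb1 was also lower in GL261-GSCs within each class. It had 316 ± 72.9 CPM (SD, n = 4) against 416 ± 10.2 (SD, n = 2) in G2/M-high cells. The values were 218 ± 32.7 against 315 ± 15.5 in S-high cells and 129 ± 33.3 against 216 ± 29.0 in the other cells. The libraries did not overlap in any class, and the share of all genes without overlap was not computed within classes. These CPM values use the UMI total of each class, without TMM scaling. The class limits were set in each library on its own, at 1.04% to 1.28% of UMIs for G2/M genes and 0.371% to 0.511% for G1/S genes. Cells of a class are therefore not matched in cell cycle state between groups.

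**Figure D4:**
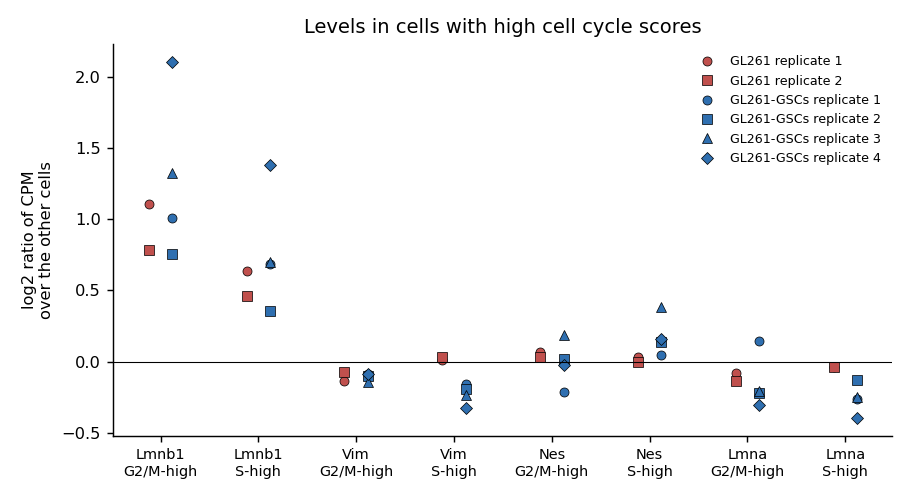
Log2 ratio of CPM in G2/M-high or S-high cells over the other cells of the same library, for Lmnb1, Vim, Nes and Lmna; red symbols are the 2 GL261 libraries and blue symbols the 4 GL261-GSCs libraries. Lmnb1 lies above 0 in all 6 libraries in both classes, and the other genes lie within 0.40 of 0.

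Genes that work with intermediate filaments were taken from 4 lists. Over the lists 19 genes were called by edgeR, a count that fell to 7 without GL261 replicate 1 and to 5 without GL261 replicate 2. The share called in each list was 37.5% to 45.5% of the genes tested, beside 29.9% of all genes, and is a description only, since Krt80, Bfsp1 and Eppk1 passed the filter on low counts through GL261 alone. Plec, Syne3, Pak1 and Prkca were called under all 16 alternatives run. Krt80 was too, but with no UMI in GL261-GSCs this says nothing of stability. Each of the other called genes named here from the lists lost its call in at least 1. Genes beyond the naming rule (Iffo2, Macf1, Dsp, Emd, Tor1aip1, Rce1, Lemd2, Capn2, Capn1 and Casp6) were named after their values were seen.

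Of 17 other intermediate filament genes, 9 were tested, 3 fell and 1 rose, with a median log2 fold change of 0.02. Krt80 and Bfsp1, both among the 3 that fell, passed the filter only through GL261 and so had to differ. Krt80, an epithelial type II keratin, was read 1015 times in GL261 and not at all in GL261-GSCs, at least 674-fold lower against 3 UMIs over the group. Bfsp1, a filament of the eye lens, had 23 and 3 UMIs, 15.3-fold lower (95% counting interval 4.61 to 79.5). Its lens partner Bfsp2 rose by 3.18 ± 0.59 (SE) on the log2 scale to between 1.68 and 4.75 CPM, edgeR adjusted p = 0.00854. Iffo2, which has a filament rod domain, fell by 0.77 on the log2 scale.

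Of 11 linkers and chaperones, 10 were tested, 4 fell and none rose, with a median log2 fold change of -0.45. Eppk1, one of the 4, passed the filter only through GL261. Dsp, with 1 UMI in GL261 and 53 in GL261-GSCs, was not called (edgeR adjusted p = 0.132). Dsp passed the filter only through GL261-GSCs, where replicates 1 to 4 held 1, 2, 28 and 22 UMIs. From summed UMIs it was 26.6-fold higher in GL261-GSCs (95% counting interval 4.57 to 1070). That interval covers counting error only, and the size rests on replicates 3 and 4. Plec encodes plectin, which ties vimentin filaments to actin, microtubules and adhesion sites. Its level was 1247 and 1369 CPM in the GL261 libraries, and 316, 331, 425 and 367 CPM in GL261-GSCs. Its log2 fold change was -1.86 ± 0.15 (SE), edgeR adjusted p = 0.000382, close in size to that of Vim. Cryab, the small heat shock protein αB-crystallin that binds filament subunits, had 5702 and 6869 CPM in GL261, against 1211, 613, 285 and 171 CPM in GL261-GSCs. The GL261-GSCs libraries differed widely among themselves, and all were lower than GL261. The log2 fold change was -3.46 ± 0.70 (SE), with an edgeR adjusted p of 0.0112, which became 0.0525 without GL261 replicate 1 and 0.0693 without GL261 replicate 2. Without GL261-GSCs replicate 1 the log2 fold change was -4.13. Eppk1, a plakin of epithelia, fell by 2.77 on the log2 scale from a very low level, and Macf1, which links actin to microtubules, by 0.64.

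**Figure D5:**
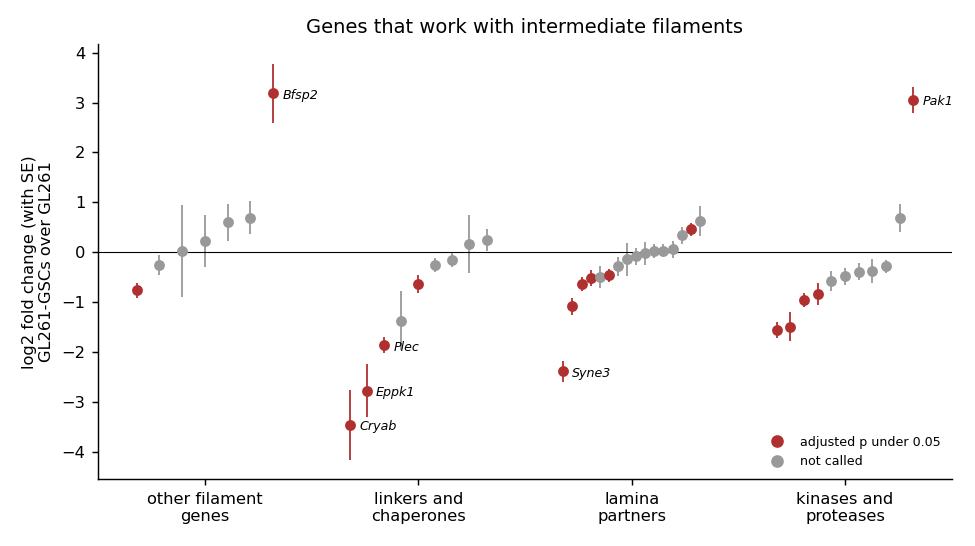
Log2 fold change of GL261-GSCs over GL261 with its SE for the tested genes of the 4 lists. Red points have an edgeR adjusted p under 0.05 and grey points do not. Krt80 and Bfsp1, with 0 and 3 UMIs in GL261-GSCs, and Dsp, with 1 UMI in GL261, are not drawn. Cryab, Eppk1, Syne3 and Plec are the lowest red points, and Bfsp2 and Pak1 the highest.

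Of 16 partners of the nuclear lamina, all were tested, 5 fell and 1 rose, with a median log2 fold change of -0.11. Syne3 encodes nesprin-3, which binds plectin at the outer nuclear membrane. Its level was 19.4 and 23.6 CPM in the GL261 libraries, and 3.26 to 5.0 CPM in GL261-GSCs, a log2 fold change of -2.39 ± 0.21 (SE), edgeR adjusted p = 0.000483. Emd, which encodes the lamin-binding protein emerin, fell by 1.09 on the log2 scale, and Tor1aip1, Rce1 and Lemd2 fell by 0.64, 0.52 and 0.46. Of the 16 alternatives, Rce1 was called in 5 and Lemd2 in 8. Lbr, the lamin B receptor that tethers chromatin to the envelope, was the gene that rose, by 0.46 ± 0.13 (SE) on the log2 scale with an edgeR adjusted p of 0.0373, and it kept its call in 8 of 16 alternatives. Lbr averaged 58.1 ± 3.33 CPM (SD, n = 2) in GL261, against 79.8 ± 6.85 (SD, n = 4) in GL261-GSCs, while Lmna moved in the other direction.

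Of 11 kinases and proteases that act on filaments, all were tested, 4 fell and 1 rose, with a median log2 fold change of -0.48. Prkca, which encodes protein kinase C alpha, had 48.3 and 51.6 CPM in the GL261 libraries and 14.2 to 20.2 CPM in those of GL261-GSCs. Its log2 fold change was -1.56 ± 0.17 (SE), edgeR adjusted p = 0.00101. The calpain genes Capn2 and Capn1 fell by 1.49 and 0.95, and Casp6, whose caspase cuts lamin A, by 0.83 on the log2 scale. Pak1, a kinase that phosphorylates vimentin and desmin, rose. It had 25.3 and 20.4 CPM in the GL261 libraries, and 181, 143, 238 and 196 CPM in GL261-GSCs, a log2 fold change of 3.05 ± 0.25 (SE), edgeR adjusted p = 0.000382.

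The genes whose levels followed each abundant member most closely were found by Pearson's r of log2(CPM + 1) over the 6 libraries among 5425 genes, as a description. For Vim they were Tpm4, Acta2 and Tpp2 (r of 0.9995, 0.999 and 0.999), and for Lmna they were Fn1, Kifc3 and Acot9 (0.9998, 0.999 and 0.999). For Nes they were Smarce1, Sav1 and Reep3 (0.999, 0.998 and 0.997), and for Lmnb1 Xpo1, Haus1 and Spcs1 (0.995, 0.994 and 0.993). Since the libraries fall into 2 groups, a gene that differs between the groups reaches a high r: 415 genes exceeded 0.95 with Vim, 420 with Nes, 462 with Lmna and 87 with Lmnb1.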

How the data were processed

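Single-cell 5′ RNA sequencing was deposited for 2 GL261 and 4 GL261-GSCs libraries as matrices of raw UMI counts per gene and barcode. The authors made the counts with Cell Ranger (4, per the file headers) on mm10, per the submitters' processing notes; how strand was handled and which annotation was used: not given in the sources used here. The members and gene lists were chosen with earlier results of these data known, and some genes of the kinase list are not reported here.

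A barcode was called a cell when its UMIs exceeded 10% of the 99th percentile of the 3000 largest barcodes, with at least 500 genes and at most 10% mitochondrial UMIs (R 4.3.3, Python 3.11.15). Doublets were not removed. UMIs were summed over cells per library and tested with edgeR 4.0.16 (TMM, filterByExpr, quasi-likelihood test on group). CPM are TMM-scaled unless stated, and UMI counts were not divided by gene length because each counts 1 transcript end. The SE of a fold change was taken from the fit as its absolute value over the root of F. Single values per library were compared by exact permutation, 2-sided. The p-values for shares of cells are unadjusted, and those for cell cycle classes are adjusted over all genes in place of the planned adjustment over the members alone. Gene positions come from GENCODE's GRCm38 annotation, with 99.9% of 54446 feature IDs matched. Named list genes are those with the smallest p in each direction among called genes and those called with an absolute log2 fold change of at least 2. Alternatives were DESeq2 1.42.0, limma-voom 3.58.1, other scalings, filters, cell limits and depths, a replicate block and leaving out each library; a fit with 1 GL261 library assumes it to vary as the GL261-GSCs libraries do. The tests were tried on simulated data first.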

Additional observations from a re-analysis of the deposited data

Results flagged for a closer look

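The level of Vim in S-high cells relative to the other cells had opposite signs in the groups at full depth. The log2 ratio was 0.01 and 0.03 in the 2 GL261 libraries and -0.16, -0.20, -0.23 and -0.32 in the 4 GL261-GSCs libraries, so that the group means differed by -0.25 (log2, GL261-GSCs minus GL261). The difference itself was not tested. The GL261 values are close to 0, and with cells thinned to 2000 UMIs both were -0.01, so that all 6 libraries were below 0 and the opposite signs were lost (-0.06, -0.16, -0.18 and -0.24 in GL261-GSCs). Among 22 sets of 4 GL261-GSCs values examined for a library far from the others, none passed Dixon's 95% limit, which chance passes in about 1 of 20 sets.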

How the results depend on the processing

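Each of the 7 tested members kept its direction under all 16 alternatives, and 108 of the 112 fits kept the call. The 4 that lost it were Nes without GL261 replicate 2 and Lmnb1 without GL261 replicate 1, GL261 replicate 2 or GL261-GSCs replicate 2. The 108 include all 16 fits of Gfap, which passed the filter only through GL261, so its kept calls say nothing of stability. The count of members called ranged from 5 to 7 when 1 library was left out, and that of list genes from 5 to 19, with 7 without GL261 replicate 1 and 5 without GL261 replicate 2. Over all genes, 5514 calls became 1972 and 1817 without GL261 replicates 1 and 2; with 1 GL261 library left, the fit has fewer libraries. Scaling by library size alone took the all-gene median (log2) from 0.04 to 0.18 and the calls from 2920 higher and 2594 lower to 3491 and 2034. Thinning to 1000 UMIs changed the difference in median Vim UMIs per cell from -17.5 to -8.25, as a lower depth must. Scoring cells thinned to 2000 UMIs raised the comparisons with all libraries on 1 side from 4 to 7, and the cause was not tested. Only replicate numbers 1 and 2 occur in both groups, and libraries sharing them did not deviate together (r of -0.089 and 0.132). With the replicate block the group difference therefore rests on replicates 1 and 2, and GL261-GSCs replicates 3 and 4 do not enter it. That fit called 6512 genes, 7 members and 20 list genes. Its log2 fold changes of Gfap, Synm, Cryab and Eppk1 were -7.14, -4.95, -2.86 and -3.40. Summing GL261-GSCs replicates 1 with 2 and 3 with 4, chosen after seeing the data, gave 4749 calls, 7 members and 15 list genes. Of the values for single genes, 467 stayed on their side of the threshold or within the spread, 57 lost their call and 14 moved; the log2 ratio of Nes in G2/M-high cells, near 0 at 0.01, took both signs (-0.05 in cells with at least 10000 UMIs). Depth limits Gfap, Ina, Nefl and Nefm, 15 arrangements limit the permutation p between groups, and 64 sign flips that of the cell cycle classes.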

Other observations

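Nes stood out in how its RNA was divided between called cells and barcodes with 100 to 1000 UMIs. Its CPM was 3.11 and 3.99 times as high in cells as in those barcodes in GL261, and 2.97, 2.78, 2.34 and 2.26 times in GL261-GSCs. Over 5376 abundant genes the median ratio per library was 1.02 to 1.14, and 0.353% to 2.27% of genes had a higher ratio than Nes. For Synm the ratio was 2.83 and 3.54 in GL261, from 172 and 116 UMIs in those barcodes, and it rested on at most 5 such UMIs in each GL261-GSCs library. Vim (1.17 to 1.37), Lmna (1.13 to 1.31) and Lmnb1 (1.31 to 1.41) lay closer to the other genes, and Des reached 0.577 to 1.13. The cell limits set which barcodes enter each side of these ratios.

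On chromosome 3, which holds Nes and Lmna, GL261-GSCs replicate 1 was lower than the other GL261-GSCs libraries by a median of -0.39 on the log2 scale over 260 abundant genes, against 0.08 over all abundant genes, while its own Nes and Lmna levels were not the lowest of the group.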
